A study of Homo sapiens with 6 samples.

Results

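The ligands with which one cell instructs a T cell were examined through 8 genes: the B7 family genes CD80, CD86, CD274, PDCD1LG2, ICOSLG and CD276, and the genes of 2 further surface ligands, CD83 and CD58. They were found by symbol through their Ensembl identifiers among the 63677 genes of the deposited count table, and 8 of 8 were matched, each on a primary chromosome. The counts came from RPMI8226, an established human multiple myeloma line, that is, a malignant plasma cell grown in suspension. Wild-type RPMI8226 cells received 100 nM GST-PTR1 or 100 nM GST for 6 hr, with 3 biological replicates of each treatment. GST-PTR1 is the PTR1 domain of HAPLN1, a link protein of the hyaluronan matrix, fused to glutathione-S-transferase (GST), and the control cells received the fusion partner by itself. Both proteins were produced in Escherichia coli and purified on glutathione beads. The authors measured bacterial lipopolysaccharide with a Limulus assay. They report a level orders of magnitude too low for their NF-κB gel-shift assay to detect in these cells. The cultures held 1 cell line at 1 dose and 1 time, and neither untreated cells nor T cells were among the libraries.

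T cells need a signal beside the antigen, and the B7 proteins on the partner cell deliver it through receptors of the CD28 family. CD80 and CD86 engage CD28, which activates, and CTLA-4, which restrains. PD-L1 (the product of CD274) and PD-L2 (the product of PDCD1LG2) restrain T cells through PD-1, while the ICOS ligand engages ICOS. Plasma cells arise from B cells, which raise CD80, CD86 and CD83 when they are activated, and CD86 and its receptor CD28 are both known from myeloma cells.

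Total counts were 15202503, 20077280 and 23453473 with GST, and 22874133, 28837431 and 44688737 with GST-PTR1. Values are given below in this order within each treatment, and libraries are named by these totals. A count of 3, taken as the floor, was worth 0.0671 to 0.197 CPM (counts scaled to a total of 1000000). Levels are given as RPKM (CPM per kilobase of exon), so that genes of different lengths can be set side by side. Floors and counting intervals cover counting error only. The libraries expressed the markers of a plasma cell: all 7 of a list of 7 passed the expression filter, and their summed level was 1282 to 1533 CPM with GST and 1120 to 1249 CPM with GST-PTR1. Within that list SDC1, TNFRSF17 and XBP1 were lower and IRF4, PRDM1 and SLAMF7 higher with GST-PTR1 (adjusted p under 0.05, edgeR). The XBP1 call was lost on leaving out the GST library of 23453473 counts (adjusted p = 0.0599) or the treated library of 28837431 counts (0.0833). Marker lists of dendritic cells, of monocytes and macrophages and of stromal cells had low sums, while CD8A of the T cell list was expressed. No list of B cell markers was examined. Of 6 dendritic cell markers 4 (CD1A, CD1C, FCER1A and CLEC10A) had no count in any library, and the sum over the list was 0.299 to 0.460 CPM with GST and 0.0437 to 0.277 CPM with GST-PTR1. Of 4 monocyte and macrophage markers matched, CD163 and FCGR3A had no count, and the sum was 0.597 to 1.45 CPM with GST and 0.277 to 0.699 CPM with GST-PTR1. Of 5 T cell markers CD2 had no count and CD3D, CD3E and CD3G had at most 2 counts in a library, while CD8A stood at 5.42 ± 0.201 CPM with GST and 2.93 ± 0.386 CPM with GST-PTR1 (SD, n = 3 each), so the T cell sum was 5.33 to 5.63 and 2.64 to 3.37 CPM. Of 4 stromal markers COL1A2, COL3A1 and DCN had no count, and the sum was 0.263 to 0.512 CPM with GST and 0.291 to 0.393 CPM with GST-PTR1. In bulk RNA, more cells that express a gene and more RNA per cell cannot be told apart. The part of these marker differences in the results below was not tested.

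RNA of the ligand genes was mostly higher after treatment. By edgeR's quasi-likelihood test with an adjusted p under 0.05, 7 of the 8 genes were higher, where 9.15% of the 16926 genes tested were, and 0 of the 8 were lower, where 11.4% of all genes tested were. At an unadjusted p under 0.05, with DESeq2 and with limma voom the counts were likewise 7 and 0. The rise reached 2-fold or more in 6 of the 8 genes, against 3.68% of all genes tested. The median log2 fold change was 1.73 over the 8 ligand genes and 0.01 over all genes tested. All 8 passed edgeR's expression filter, and all 8 had counts above the floor in every library, so none was left out. The remaining gene, PDCD1LG2, did not pass the test in either direction. Fold changes are on counts scaled by edgeR's TMM factors, and when library totals were used instead the median of all genes tested shifted by -0.20 on the log2 scale, so the log2 fold changes below would each be lower by about that much.

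**Figure D1:**
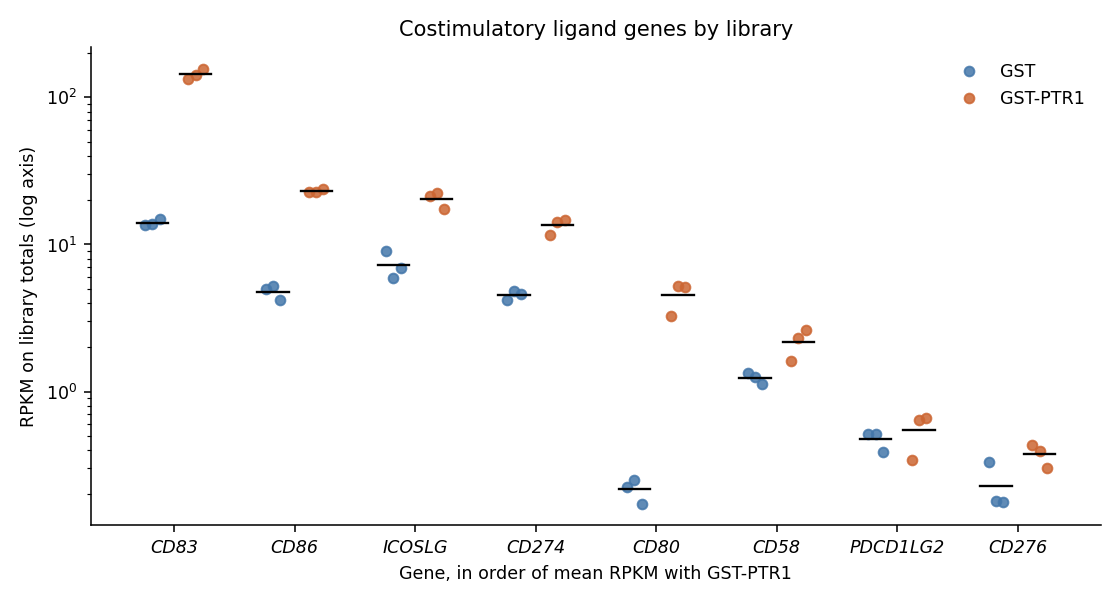
Level of each ligand gene in every library, in RPKM on a log axis, with GST and GST-PTR1 libraries as separate points and a bar at each treatment's mean. The GST-PTR1 points lie above all GST points for CD80, CD86, CD274, ICOSLG, CD83 and CD58, and the treatments overlap for PDCD1LG2 and CD276.

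CD80 and CD86, the ligands of CD28 and CTLA-4, both rose, and from very different levels. CD80 (ENSG00000121594, chr3:119243140-119278449 of GRCh37, minus strand) had 11, 16 and 13 counts with GST and 240, 484 and 730 counts with GST-PTR1. In RPKM these were 0.226, 0.249 and 0.173 with GST and 3.28, 5.24 and 5.10 with GST-PTR1, so CD80 was low in control cells and higher in every treated library. The mean rose from 0.216 ± 0.0389 to 4.54 ± 1.10 RPKM (SD, n = 3 each). CD80 had a log2 fold change of 4.61 (standard error 0.28, 95% interval 4.0 to 5.22, adjusted p = 7.72e-07 from edgeR), or 24.4-fold, and 0.408% of the genes tested had a larger one. Among the GST-PTR1 libraries, the one with the fewest total counts was also the lowest for CD80, and it still stood above all GST libraries.

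CD86 (ENSG00000114013, chr3:121774213-121839983, plus strand) was already expressed in control cells. It had 258, 358 and 335 counts with GST and 1779, 2262 and 3646 with GST-PTR1. Its RPKM was 4.95, 5.20 and 4.16 with GST and 22.7, 22.9 and 23.8 with GST-PTR1. The treated libraries lay closely together and far above the controls, and the mean went from 4.77 ± 0.540 to 23.1 ± 0.594 RPKM (SD, n = 3 each). For CD86 the log2 fold change was 2.48 (standard error 0.12, 95% interval 2.20 to 2.75, adjusted p = 2.08e-07 from edgeR), or 5.57-fold. Although both genes lie on chromosome 3, 2495764 bases separate them.

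CD80 rose more than CD86, a comparison within a library that no scaling between libraries can move. With GST the RPKM of CD80 was 0.0457, 0.0479 and 0.0416 of that of CD86. With GST-PTR1 it was 0.145, 0.229 and 0.215 of it. The ratios of the treatments did not overlap, with a difference of 2.10 on the log2 scale and an exact two-sided permutation p = 0.1, the smallest that 3 libraries against 3 allow (0.122 adjusted over the 28 pairs of ligand genes). CD86 stayed the more abundant RNA of the pair in every library.

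The promoter of CD86 is shown because it holds one of the motif matches among the ligand genes. The windows are from RefSeq on GRCh38.p14 and span 250 bases before to 50 bases after an annotated start. The coordinates of the counted genes are on GRCh37, so the builds differ, and neither was converted. A table of such windows held 10 for 7 of the 8 genes. The NF-κB consensus (the usual degenerate motif of 10 bases for κB sites) was searched on both strands and was found in 11.3% of the 35114 windows of the table. Among the ligand genes it was found in 1 window each of CD83, CD86 and CD276, and in no window of the other 4 genes with one. The CD86 window at chr3:122077534-122077833 (plus strand) holds 1 stretch of 11 bases, from 82 to 72 bases before the start, marked by the capitals, in which matches overlap.
CD86: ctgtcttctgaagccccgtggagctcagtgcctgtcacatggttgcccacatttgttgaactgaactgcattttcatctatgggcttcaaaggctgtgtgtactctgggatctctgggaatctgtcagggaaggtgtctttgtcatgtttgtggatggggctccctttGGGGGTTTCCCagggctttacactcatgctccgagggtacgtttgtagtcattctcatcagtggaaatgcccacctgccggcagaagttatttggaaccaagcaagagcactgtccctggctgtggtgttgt
Another CD86 window, at an upstream start, and the window of CD80 held no match to this motif. A match is a description of letters, and binding was not measured.

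Of the PD-1 ligand genes, neighbours on chromosome 9, CD274 rose and PDCD1LG2 did not pass the test. CD274 (ENSG00000120217, chr9:5450503-5470566, plus strand), the gene of PD-L1, had 262, 400 and 444 counts with GST and 1086, 1696 and 2710 with GST-PTR1. Its RPKM was 4.20, 4.85 and 4.61 with GST and 11.6, 14.3 and 14.8 with GST-PTR1. Every treated library was above every control library, and the mean went from 4.55 ± 0.331 to 13.5 ± 1.74 RPKM (SD, n = 3 each). The log2 fold change of CD274 was 1.77 (standard error 0.14, 95% interval 1.45 to 2.09, adjusted p = 8.64e-06 from edgeR), or 3.42-fold.

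PDCD1LG2 (ENSG00000197646, chr9:5510545-5571282, plus strand), the gene of PD-L2, starts 39979 bases beyond the end of CD274. It had 19, 25 and 22 counts with GST and 19, 45 and 71 with GST-PTR1. In RPKM these were 0.517, 0.515 and 0.388 with GST and 0.344, 0.645 and 0.657 with GST-PTR1, so the treatments overlapped, with the lowest and the highest values both among the treated libraries. The log2 fold change of PDCD1LG2 was 0.47 (standard error 0.31, 95% interval -0.21 to 1.15, adjusted p = 0.301 from edgeR), and the exact permutation p of its RPKM was 0.6. At this depth the interval holds no change as well as a rise of 2-fold. The difference between these neighbours was tested within libraries. CD274 stood at 8.12, 9.42 and 11.9 times the RPKM of PDCD1LG2 with GST and at 33.6, 22.2 and 22.5 times with GST-PTR1, which did not overlap (exact permutation p = 0.1, 0.122 adjusted over the 28 pairs).

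The CD274 window at chr9:5450292-5450591 of GRCh38.p14 (plus strand) is shown because, among the windows of the ligand genes, matches to the motifs of interferon signalling were found in it alone. The capitals mark 2 stretches. The first, 16 bases from 208 to 193 before the start, is made of overlapping matches on the other strand to the core of the interferon-stimulated response element (GAAA, any 2 bases and GAAA again), which 3.57% of all windows hold. The second, 9 bases from 125 to 117 before the start, matches the gamma-activated site TTCNNNGAA, bound by STAT factors, which 7.66% of all windows hold.
CD274: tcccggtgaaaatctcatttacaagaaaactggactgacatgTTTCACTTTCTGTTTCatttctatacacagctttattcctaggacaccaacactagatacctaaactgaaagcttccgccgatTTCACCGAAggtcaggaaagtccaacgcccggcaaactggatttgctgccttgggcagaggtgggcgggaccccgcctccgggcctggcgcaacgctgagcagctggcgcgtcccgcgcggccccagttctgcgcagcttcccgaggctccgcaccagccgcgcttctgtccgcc
No match to the NF-κB consensus is in this window, and PDCD1LG2 has no window in the table used here.

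ICOSLG, whose product is the ligand of ICOS on helper T cells, rose as well. ICOSLG (ENSG00000160223, chr21:45642874-45660849, minus strand) had 1106, 957 and 1311 counts with GST and 3944, 5202 and 6350 with GST-PTR1. Its RPKM was 8.97, 5.88 and 6.89 with GST and 21.3, 22.2 and 17.5 with GST-PTR1. The treated libraries were all above the controls, although ICOSLG varied more among the controls than CD86 or CD274 did, and the mean went from 7.25 ± 1.58 to 20.3 ± 2.49 RPKM (SD, n = 3 each). ICOSLG had a log2 fold change of 1.69 (standard error 0.14, 95% interval 1.37 to 2.00, adjusted p = 1.15e-05 from edgeR), or 3.22-fold. The RPKM of CD274 was 0.468, 0.825 and 0.669 of that of ICOSLG with GST and 0.544, 0.644 and 0.843 of it with GST-PTR1. These ratios overlapped (exact permutation p = 0.9), with a mean difference of 0.06 on the log2 scale.

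CD276, the gene of B7-H3, a B7 protein without a settled receptor, was low in every library, and its rise was the least certain of those that passed the test. CD276 (ENSG00000103855, chr15:73976307-74006859, plus strand) had 28, 20 and 23 counts with GST and 55, 63 and 75 with GST-PTR1. In RPKM these were 0.332, 0.180 and 0.177 with GST and 0.434, 0.394 and 0.303 with GST-PTR1. The highest control lay above the lowest treated library on this scale, while on TMM-scaled totals the treatments did not overlap. The log2 fold change of CD276 was 0.93 (standard error 0.27, 95% interval 0.33 to 1.53, adjusted p = 0.0334 from edgeR), and the exact permutation p of its RPKM on library totals was 0.2. On library totals, without TMM factors, the log2 fold change was 0.74 (adjusted p = 0.0775). Leaving out the GST library of 20077280 counts gave 0.81 (adjusted p = 0.103), and leaving out that of 23453473 counts gave 0.77 (adjusted p = 0.136). Leaving out the GST-PTR1 library of 22874133 counts gave 0.86 (adjusted p = 0.0636), and leaving out the one of 28837431 counts gave 0.91 (adjusted p = 0.0885).

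CD83, an immunoglobulin-type surface protein known from mature dendritic cells and activated B cells, was the most abundant of these RNAs under both treatments. CD83 (ENSG00000112149, chr6:14117872-14137149, plus strand) had 509, 680 and 864 counts with GST and 7574, 10123 and 17204 with GST-PTR1. Its RPKM was 13.5, 13.7 and 14.9 with GST and 134.0, 142.1 and 155.8 with GST-PTR1. The libraries of each treatment lay closely together, and the mean went from 14.1 ± 0.743 to 144.0 ± 11 RPKM (SD, n = 3 each). CD83 had a log2 fold change of 3.56 (standard error 0.13, 95% interval 3.27 to 3.84, adjusted p = 2.29e-08 from edgeR), or 11.8-fold, and 0.709% of the genes tested had a larger one.

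One CD83 window, chr6:14117522-14117821 of GRCh38.p14 (plus strand), is shown because it holds more stretches matching the NF-κB consensus than any other window of the ligand genes. There were 3 stretches, in capitals, from 134 to 125, from 76 to 65 and from 51 to 41 bases before the start. An upstream window of CD83 held none.
CD83: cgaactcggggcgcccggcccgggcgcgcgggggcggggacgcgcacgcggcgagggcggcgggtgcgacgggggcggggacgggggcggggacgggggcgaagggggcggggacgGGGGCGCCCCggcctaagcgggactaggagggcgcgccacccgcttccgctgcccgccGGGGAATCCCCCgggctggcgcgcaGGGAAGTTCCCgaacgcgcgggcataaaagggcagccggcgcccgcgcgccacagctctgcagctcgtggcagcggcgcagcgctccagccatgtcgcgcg
CD276 held 1 stretch, from 68 to 59 bases before a start, in the window chr15:73684520-73684819. The windows of ICOSLG, CD58 and CD80, which rose, held none, and the AP-1 motif TGANTCA, held by 7.71% of all windows, was found in none of the 10.

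CD58, the adhesion ligand of CD2 on T cells and natural killer cells, rose by the smallest amount that reached 2-fold. CD58 (ENSG00000116815, chr1:117057157-117113661, minus strand) had 36, 45 and 47 counts with GST and 66, 119 and 209 with GST-PTR1. Its RPKM was 1.33, 1.26 and 1.12 with GST and 1.62, 2.31 and 2.62 with GST-PTR1. All treated libraries were above the controls, but the lowest of them only narrowly, and the mean went from 1.24 ± 0.104 to 2.19 ± 0.515 RPKM (SD, n = 3 each). In the fit CD58 had a log2 fold change of 1.05 (standard error 0.24, 95% interval 0.53 to 1.57, adjusted p = 0.0101 from edgeR), or 2.07-fold. On leaving out the GST library of 23453473 counts this was 0.99 and missed the threshold (adjusted p = 0.0547).

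**Figure D2:**
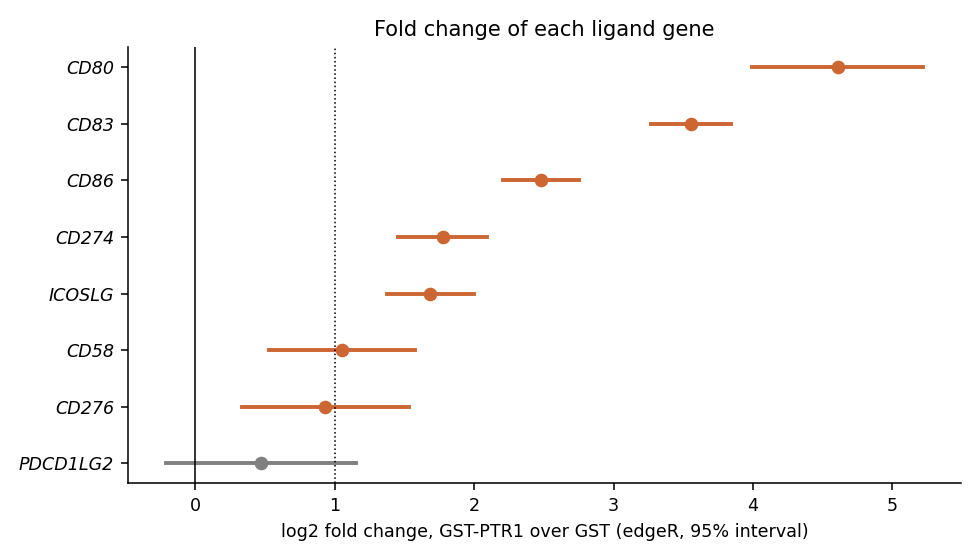
Log2 fold change of each ligand gene, GST-PTR1 over GST, from edgeR, with its 95% interval as a bar, a solid line at 0 and a dotted line at a rise of 2-fold. The interval lies wholly above the dotted line for CD80, CD83, CD86, CD274 and ICOSLG, spans it for CD58 and CD276, and spans both lines for PDCD1LG2 (grey).

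In RPKM on library totals, all treated libraries were above all controls for 6 of the 8 genes, where 8.71% of all genes tested were. The exact permutation test, which cannot go below p = 0.1 here, gave 0.1 for each of those 6. CD80, CD86, CD274, ICOSLG and CD83 passed the test under each of 14 alternatives, a test against a fold change of 2 among them, and CD58 under 12.

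The order of the ligand RNAs changed mainly through CD80. With GST, CD83 was highest, followed by ICOSLG, then CD86 and CD274, then CD58, PDCD1LG2, CD276 and CD80. Among neighbours in that order, CD86 and CD274 overlapped, as did CD276 and CD80, and the others did not. With GST-PTR1 the order was CD83, CD86, ICOSLG, CD274, CD80, CD58, PDCD1LG2 and CD276, and there PDCD1LG2 and CD276 overlapped. CD80 thus went from rank 8 to rank 5, and CD86 went from rank 3 to rank 2.

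The RPKM of the 8 genes summed to 34.1, 31.8 and 32.4 with GST and to 195.2, 210.1 and 220.6 with GST-PTR1. CD83 made up most of this sum after treatment: its share was 42.9 ± 3.10% with GST and 69.0 ± 1.53% with GST-PTR1 (SD, n = 3 each). CD80 was the other gene whose share was higher, 0.660 ± 0.124% with GST and 2.16 ± 0.429% with GST-PTR1. The share of CD274 was 13.9 ± 1.48% with GST and 6.48 ± 0.484% with GST-PTR1, although its RNA rose. ICOSLG, at 22.0 ± 3.99% and 9.81 ± 1.62%, and CD86, at 14.6 ± 1.75% and 11.1 ± 0.455%, took smaller shares likewise. A share can be lower while a gene rises, since the shares of a library add up to the whole.

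**Figure D3:**
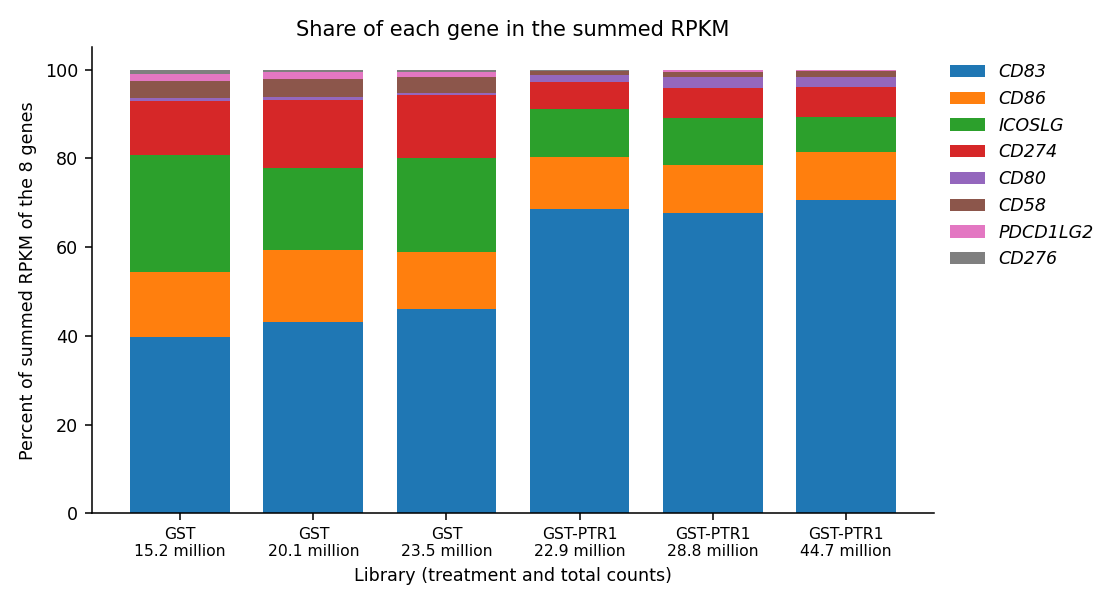
Share of each ligand gene in the summed RPKM of the 8 genes, in percent, for each of the 6 libraries as a stacked bar from 0. The CD83 segment is 39.8 to 46.0% in GST libraries and 67.6 to 70.6% in GST-PTR1 libraries.

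Ratios to CD274 within libraries did not depend on scaling. CD80 stood at 0.0539, 0.0513 and 0.0376 of the RPKM of CD274 with GST and at 0.284, 0.366 and 0.346 of it with GST-PTR1. CD86 stood at 1.18, 1.07 and 0.904 times CD274 with GST and at 1.96, 1.60 and 1.61 times with GST-PTR1. Both ratios were thus higher with GST-PTR1 in every library (exact permutation p = 0.1 each, 0.122 adjusted over the 28 pairs). Of the 28 pairs of ligand genes, the ratio was apart between the treatments for 23, where 41.8% of all pairs of tested genes with counts in every library were, and overlapped for 5, which besides CD274 with ICOSLG were CD276 with CD58, CD274 with CD276, PDCD1LG2 with CD276 and ICOSLG with CD58.

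The genes around each ligand gene were looked at next, to see whether it moved with its surroundings. Within 200 kb of the 8 genes, on the deposited coordinates, lay 88 genes that are not among them. Of these, 32 were tested, 8 were higher and 3 were lower, where 9.15% of all genes tested were higher and 11.4% lower. Among the 8 higher were PLA1A and ARHGAP31 near CD80, and ENSG00000232698 and ENSG00000237604 near ICOSLG. Those genes passed the expression filter only through the GST-PTR1 libraries, so the count of 8 says little about the surroundings of the ligand genes. Of the 14 genes around CD80, 6 were not tested. Of the 8 tested neighbours of CD80, 4 were higher and 0 lower in edgeR's test: ADPRH, PLA1A, ARHGAP31 and POGLUT1. At an unadjusted p under 0.05 the count was 8 higher and 0 lower, with DESeq2 it was 6 and 0, and with limma voom 5 and 0. ADPRH, the gene of an ADP-ribosylarginine hydrolase, lies 19666 bases from CD80 and had 37, 22 and 35 counts with GST and 221, 237 and 320 with GST-PTR1 (log2 fold change 2.54, adjusted p = 2.92e-05 from edgeR). PLA1A, a phospholipase gene 38240 bases away, had 4, 1 and 1 counts with GST and 14, 22 and 30 with GST-PTR1 (log2 fold change 2.87, adjusted p = 0.00296 from edgeR). ARHGAP31, 103579 bases away, had 0, 0 and 2 counts with GST and 62, 72 and 99 with GST-PTR1. The ratio of its pooled rates was 71.0, with a 95% counting interval of 19.4 to 590. PLA1A and ARHGAP31 were so low with GST that they passed the expression filter only through the GST-PTR1 libraries, so their place among the 4 says little about the surroundings of CD80. POGLUT1, an enzyme gene 29585 bases away, differed little (log2 fold change 0.31, adjusted p = 0.0444 from edgeR) and passed under 4 of 13 alternatives (the test against a fold change of 2 left out), and under none of the 6 that left out a library.

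The genes tested around CD274 did not pass the test. Of its 4 tested neighbours, PDCD1LG2 included, 0 passed edgeR's test. Over all genes tested 9.15% were higher and 11.4% lower, so 0 of 4 is little apart from that share. At an unadjusted p under 0.05, with DESeq2 and with limma voom, 0 of these 4 neighbours passed likewise. PLGRKT, the gene of a plasminogen receptor and the nearest of them at 12625 bases, differed by 0.33 on the log2 scale (adjusted p = 0.231 from edgeR). JAK2, the kinase gene that shares this chromosome arm, ends 322320 bases before CD274 and was higher by 0.71 on the log2 scale (adjusted p = 0.0133 from edgeR), a call lost with library totals (0.52, adjusted p = 0.0504), without the GST library of 23453473 counts (0.62, adjusted p = 0.0668) and on leaving out the GST-PTR1 library of 28837431 counts (0.70, adjusted p = 0.0518). At the far side of PDCD1LG2, ERMP1, the gene of a peptidase of the endoplasmic reticulum 193794 bases away, was lower (log2 fold change -0.48, adjusted p = 0.0127 from edgeR).

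Around ICOSLG, 10 genes were tested, of which 4 were higher and 1 lower, where 9.15% of all genes tested were higher and 11.4% lower. PWP2, a ribosome biogenesis gene, differed by 0.44 on the log2 scale (adjusted p = 0.00689) and TRAPPC10, a vesicle tethering gene, by 0.36 (adjusted p = 0.0342), both from edgeR and both lost with library totals (0.24 and 0.16). TRAPPC10 passed under 7 of 13 alternatives, and was lost on leaving out the GST library of 20077280 counts (adjusted p = 0.0932) or 23453473 counts (0.117), or the treated library of 22874133 counts (0.0864) or 28837431 counts (0.113). A pair of genes without a symbol in the tables used here were higher from low counts. Both were so low with GST that they needed the GST-PTR1 libraries to pass the expression filter. Their place among the 4 therefore says little about the surroundings of ICOSLG. ENSG00000232698, 15592 bases away, had 1, 2 and 6 counts with GST and 19, 18 and 29 with GST-PTR1 (log2 fold change 2.35, adjusted p = 0.00385 from edgeR). ENSG00000237604, 46538 bases away, had 11, 7 and 5 counts with GST and 25, 37 and 34 with GST-PTR1 (log2 fold change 1.55, adjusted p = 0.0201 from edgeR), a call lost on leaving out the GST library of 20077280 counts (adjusted p = 0.0693) or 23453473 counts (0.095), or the treated library of 28837431 counts (0.0703). TRPM2, a cation channel gene 109197 bases away, had 55, 35 and 50 counts with GST and 32, 24 and 32 with GST-PTR1 (log2 fold change -1.17, adjusted p = 0.0261 from edgeR), and passed under 8 of 13 alternatives. It was lost with thinned libraries (adjusted p = 0.0856) and on leaving out the GST library of 15202503 counts (0.0713) or 23453473 counts (0.0577), or the treated library of 28837431 counts (0.0845) or 44688737 counts (0.0875). Beside CD83, RNF182, a ubiquitin ligase gene 137339 bases away, was lower (log2 fold change -0.66, adjusted p = 0.00305 from edgeR). Around CD86, CD276 and CD58 there were 3, 1 and 4 tested neighbours, and 0 of these 8 passed edgeR's test. With 9.15% of all genes tested higher and 11.4% lower, 0 of 8 is little apart from that share. At an unadjusted p under 0.05 the count was 2, both near CD86 and higher, and it was 1 with DESeq2 and 0 with limma voom.

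**Figure D4:**
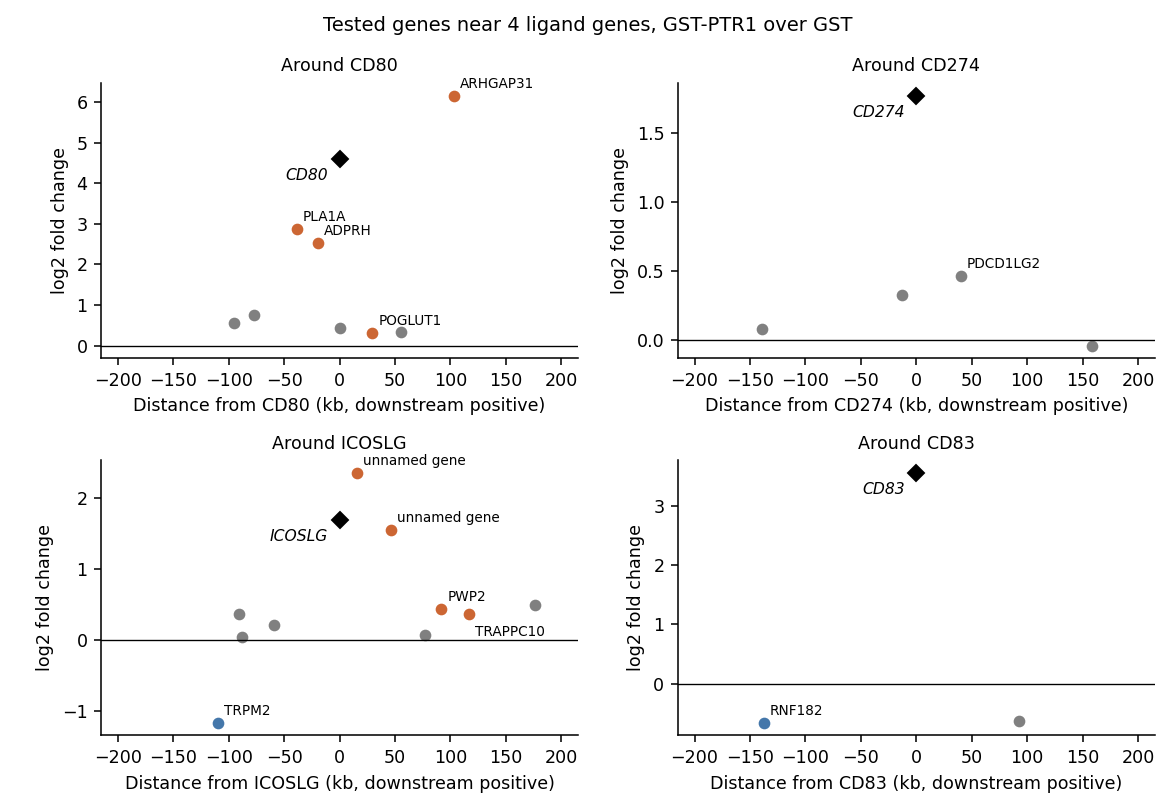
Log2 fold change, GST-PTR1 over GST, of tested genes within 200 kb of CD80, CD274, ICOSLG and CD83 (black diamonds), against distance in kb from the ligand gene with positive values downstream. Orange points are higher and blue points lower at an adjusted p under 0.05, grey points did not pass, and the point of ARHGAP31 is a fitted value from 2 pooled control counts.

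No relative of these ligands was called higher in the main fit. Of 14 other B7 and butyrophilin genes, 7 passed the expression filter, 3 were lower by edgeR's test (adjusted p under 0.05) and 0 higher. Over all genes tested 11.4% were lower and 9.15% higher, so 0 higher of 7 is little apart from that share. The 7 had a median log2 fold change of -0.40. Of them, 5 were lower and 1 higher at an unadjusted p under 0.05, with DESeq2 3 and 1, and with limma voom 3 and 0. VSIR, the gene of the inhibitory B7-like protein VISTA, had 305, 264 and 326 counts with GST and 152, 138 and 207 with GST-PTR1, and went from 15.7 ± 3.79 to 5.35 ± 1.12 CPM (SD, n = 3 each; log2 fold change -1.36, adjusted p = 0.000472 from edgeR). BTN3A1 and BTN3A2, butyrophilins known for the recognition of phosphoantigens by gamma delta T cells, were lower by smaller amounts. Their log2 fold changes were -0.69 (adjusted p = 0.00293) and -0.40 (adjusted p = 0.0139), both from edgeR. The call of BTN3A2 was lost without the GST library of 23453473 counts (adjusted p = 0.054), the GST-PTR1 library of 28837431 counts (0.0722) or that of 44688737 counts (0.0516). Reads that map to several places had been left out, and how many these related genes lost by it was not measured. BTN2A2, at a log2 fold change of 0.33 (adjusted p = 0.0537), was chosen after its values were seen, as the gene that passed as higher with DESeq2's size factors (0.34, adjusted p = 0.0459).

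Receptors of B7 proteins and of CD58 are T cell genes for the most part, yet of 7 such genes 3 were expressed in these cells. The 7 include TMIGD2, which is not a receptor of the 8 ligand genes' products. CD28 had 225 ± 12.8 CPM with GST and 153 ± 10.9 CPM with GST-PTR1 (SD, n = 3 each), with every treated library below every control, where 34.4% of all genes tested lay likewise. Its log2 fold change was -0.36 (adjusted p = 0.0245 from edgeR), a call lost when any one library was left out (adjusted p from 0.053 to 0.0888) and with a filter of 1 count in any library (0.0534). PDCD1, the gene of PD-1, had a log2 fold change of -0.38 (adjusted p = 0.0581) and RGMB, whose product binds PD-L2, one of -0.25 (adjusted p = 0.195), both from edgeR. On library totals all 3 were lower at an adjusted p under 0.05, as were 3795 of the 16926 genes tested, so the number of receptor genes that passed depended on the scaling. CTLA4 and ICOS did not pass the filter, and CD2 and TMIGD2 had no count in any library.

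Ligands of T cells outside the B7 family rose in part. Of 16 such costimulatory and adhesion genes 15 were tested, 8 were higher and 0 lower, where 9.15% of all genes tested were higher and 11.4% lower. The median log2 fold change of the 15 was 0.55. At an unadjusted p under 0.05 in edgeR's test 10 were higher and 0 lower, with DESeq2 9 and 0, and with limma voom 8 and 0. TNFSF9, the ligand of 4-1BB, went from 0.825 ± 0.198 to 53.9 ± 0.945 CPM (log2 fold change 6.25, adjusted p = 2.25e-09 from edgeR). CD70, the ligand of CD27, went from 10.7 ± 0.662 to 117 ± 7.97 CPM (log2 fold change 3.65, adjusted p = 1.37e-08 from edgeR). ICAM1, the integrin ligand, and CD40, a receptor of helper signals, had log2 fold changes of 2.33 (adjusted p = 2.10e-07) and 2.38 (adjusted p = 1.16e-05), both from edgeR. TNFSF18, the ligand of GITR, went from 0.164 ± 0.121 to 3.00 ± 0.795 CPM (log2 fold change 4.32, adjusted p = 4.55e-05 from edgeR), and had 1, 6 and 3 counts with GST and 48, 95 and 161 with GST-PTR1. It was so low with GST that it passed the expression filter only through the GST-PTR1 libraries, so its place among the 8 says little. The other 3 that were higher had log2 fold changes from 0.49 to 1.87, and with library totals 6 of the 15 were higher.

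Genes known to act on the ligands were taken in 2 groups, those acting on transcription and those acting on the protein. Of 15 transcriptional regulators, all tested, 12 were higher and 0 lower, where 9.15% of all genes tested were higher and 11.4% lower. The 15 had a median log2 fold change of 0.97. The same counts of 12 and 0 came from edgeR at an unadjusted p under 0.05, DESeq2 and limma voom. The NF-κB subunit genes RELB, NFKB2 and NFKB1 had log2 fold changes of 2.28 (adjusted p = 2.15e-07), 2.09 (adjusted p = 3.69e-07) and 1.84 (adjusted p = 1.21e-06), all from edgeR. IRF1 and STAT3, factors of interferon and cytokine signalling, had log2 fold changes of 1.73 (adjusted p = 6.97e-07) and 1.62 (adjusted p = 1.46e-06), both from edgeR. With library totals 9 of the 15 were higher. The count was also 9 without the GST library of 23453473 counts or without the GST-PTR1 library of 28837431 counts. The calls of RELA and REL held under 7 and 9 of 13 alternatives. Of 9 genes whose products act on the turnover or surface level of PD-L1, CD86 or CD83, 8 were tested, with a median log2 fold change of 0.04. Of the 8, 1 was higher and 1 lower, little apart from the shares of 9.15% and 11.4% over all genes tested. CMTM6, which protects PD-L1 from degradation, differed by 0.31 on the log2 scale (adjusted p = 0.0337 from edgeR) and passed under 4 of 13 alternatives, none of them with a library left out. MARCHF8, a ubiquitin ligase that acts on CD86, differed by -0.78 on that scale (adjusted p = 0.0171 from edgeR), a call lost without the GST-PTR1 library of 44688737 counts (adjusted p = 0.055) and with libraries thinned to the smallest total (-0.51, adjusted p = 0.129). Protein was not measured in these libraries.

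**Figure D5:**
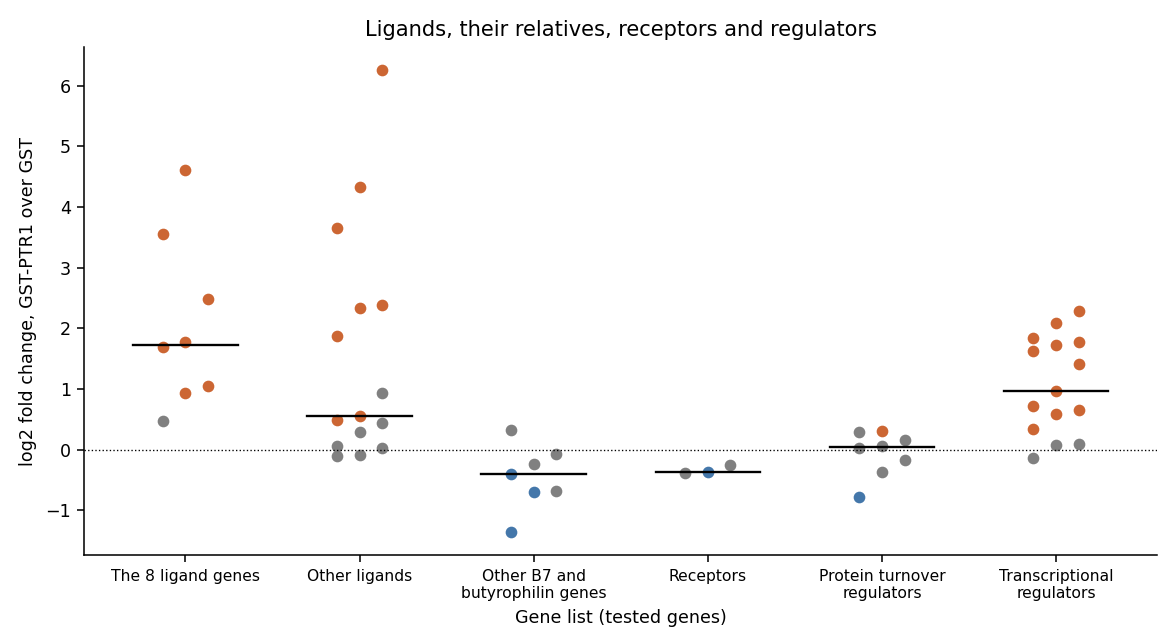
Log2 fold change, GST-PTR1 over GST, of each tested gene of the 8 ligand genes and of 5 related lists, with a black line at each list's median and a dotted line at 0. Orange points are higher and blue points lower at an adjusted p under 0.05, and the medians run from 1.73 for the 8 ligand genes to -0.40 for other B7 and butyrophilin genes.

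The genes whose levels followed CD80 and CD276 most closely were ranked by Pearson's r of log2 CPM over the 6 libraries, among 14833 genes with a mean of at least 1 CPM. For CD80, which had the largest fold change among the ligand genes, these were GRIA4 (a glutamate receptor subunit), MYB (a transcription factor) and CCNE2 (a cyclin), each with r of 0.999 and with log2 fold changes of 1.33, 1.44 and 1.60. An r over 0.9 with CD80 was shared by 1223 genes (8.25%). For CD276, the gene with the smallest fold change among those that passed the test, they were MAT2A (a methionine adenosyltransferase), RGL1 (a Ral exchange factor) and NFYA (a CCAAT-binding factor subunit), with r of 0.998, 0.997 and 0.995. Those 3 genes did not pass edgeR's test themselves, with log2 fold changes of 0.21, 0.28 and 0.36 and adjusted p of 0.191, 0.0883 and 0.0525, and 429 genes (2.89%) had an r over 0.9 with CD276. The 6 points of each correlation share 2 treatments and the depths of their libraries, so these values are given as a description.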

How the data were processed

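RNA from 6 RPMI8226 cultures, 3 per treatment, was sequenced with a strand-specific mRNA kit. The authors deposited whole-number counts per gene, not normalized, made with featureCounts v1.5.0-p1 on Ensembl release 75 (GRCh37), reading the reverse strand and leaving out multi-mapping and overlapping reads. The submitters' processing notes also name FastQC, Subread and limma, and the aligner's version is not given in the sources used here. Libraries were grouped by the treatment in the column names. Those names carry numbers other than the replicate numbers in the sample titles, so each library goes by its total. No pair within a treatment differed by less than sampling noise (smallest chi-square per gene 8.38).

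CPM and RPKM were computed from the deposited counts, library totals and exon lengths. Counts were compared in R 4.3.3 with edgeR 4.0.16 (TMM, filterByExpr, glmQLFTest, Benjamini-Hochberg over 16926 genes, adjusted p under 0.05), after testing on simulated data. RPKM values and ratios of single genes were compared with exact two-sided permutation tests. The p-values weigh the difference between treatments against the spread between these cultures. Alternatives were DESeq2 1.42.0, its size factors, library totals, limma 3.58.1 voom, count filters of 1 in any or 10 in every library, a glmTreat test of changes over 2-fold, and leaving out each library. Thinning to the smallest total and fits of 4 libraries with shared column numbers were added after seeing the data. The genes, lists, motifs and tests were chosen with earlier results of these data known. All 8 ligand genes are named, with at most the 5 list genes of smallest adjusted p, neighbours that passed, and the 3 genes most alike to CD80 and to CD276. JAK2 is named for its place near CD274, cell markers as checks of identity, and PLGRKT and BTN2A2 after their values were seen. Promoter windows are from RefSeq, GRCh38.p14, and 1 of the monocyte markers (MRC1) was not matched. No exon base of the 8 genes is shared with another gene on its strand.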

Additional observations from a re-analysis of the deposited data

How the results depend on the processing

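Between 5 and 7 ligand genes were called higher under each of the 14 alternatives, and no fold change of a ligand gene turned its direction. CD276 missed the threshold with library totals (log2 fold change 0.74), with thinned libraries (1.07) and against a fold change of 2 (0.93). When each library was left out in turn it ranged from 0.77 to 1.23. CD58 missed it against a fold change of 2 (1.05) and ranged from 0.86 to 1.24 with a library left out. PDCD1LG2 passed under none of the 14. Among other B7 and butyrophilin genes, 1 was called higher with DESeq2's size factors, 1 with DESeq2, 2 with a filter of at least 1 count in any library and 0 to 1 with a library left out, and 5 were called lower with library totals. Over all genes tested, 927 were higher and 3795 lower with library totals, and 2608 higher with the filter of at least 1 count. Leaving out a library gave 1178 to 1818 lower genes, with 1237 without the GST library of 23453473 counts, 1178 without the GST-PTR1 library of 28837431 counts and 1212 without that of 44688737 counts. On TMM-scaled totals CD86 stood at 24.8 RPKM with GST-PTR1 and CD83 at 13.2 RPKM with GST. The columns carry numbers other than the replicate numbers in the sample titles, so the labels pair no libraries. Column numbers 4 and 5 occur in both treatments, and the libraries sharing them deviated from their treatment means with r of 0.25 and -0.03 across genes. Libraries with different numbers gave r from -0.47 to 0.37. Deviations from a mean of 3 libraries depend on each other, so these values cannot tell whether a shared number marks a pair. The main fit used no pairing. In the 4 libraries with a shared number, the fit with this number as a replicate block called 7 ligand genes and 1 other B7 or butyrophilin gene higher, as did the fit with no block. Over all genes the block gave 1603 higher and 1715 lower, against 1790 and 1848 with no block. Low counts limit CD276, PDCD1LG2 and, in control cells, CD80.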
